A study of Mus musculus with 136 samples.

Results

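The genes described here are the secreted Wnt ligands, the Frizzled receptors that bind them, and 2 families of secreted antagonists, the secreted Frizzled-related proteins (Sfrp) and the Dickkopf proteins (Dkk). They were taken by gene symbol, as every numbered member of these families in the table of counts. This gave 37 of 47643 genes: 19 Wnt, 10 Fzd, 4 Sfrp and 4 Dkk genes. Concepti of the NOD mouse strain, in which females become diabetic spontaneously, were collected at E8.5 (8.5 days of gestation) from 10 litters of normal and 12 litters of diabetic dams, and for each of 66 concepti transcripts were counted separately in the embryo and in its visceral yolk sac. All groups shared the strain and the chow diet, and differed in maternal condition, tissue and developmental stage, which the labels give as the number of somite pairs. At 5–6 somite pairs 17 concepti of 10 normal and 17 of 9 diabetic litters were available, and at 7–9 somite pairs 16 of 7 normal and 16 of 6 diabetic litters, the litter D24M15 alone giving 7 of these last. Maternal blood glucose was 105 to 164 mg/dl in normal dams and 423 to 595 mg/dl in diabetic dams, apart from 1 diabetic litter that was above the scale of the meter.

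Wnt proteins are lipid-modified signals that act over short distances. In the canonical branch of the pathway, a Wnt protein joins a Frizzled receptor to the co-receptors Lrp5 or Lrp6, β-catenin is then no longer degraded, and it activates target genes together with TCF/LEF factors, whereas in the non-canonical branch, for which Wnt5a is best known, the signal goes through Ror2 and related receptors to cell polarity and movement. At the stages studied here the pathway is known for its roles in the extension of the body axis from the primitive streak and tail bud, in patterning of the neural plate, and in formation of the heart, while Sfrp proteins bind Wnt ligands outside the cell and Dkk1 blocks the co-receptors.

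The unit used throughout is the normalized count, the number of distinct molecules (UMIs, unique molecular identifiers) of a gene in a library after division by the size factor of that library. In 3′ end sequencing each transcript is counted once whether it is long or short. Levels of different genes are therefore set side by side on this scale without a correction for length. Other differences between genes in how well they are counted were not measured. Total counts ran from 1017901 to 5658850 per library, with a median of 2302819. Markers of the neural plate (Sox1, Sox2, Sox3, Pax6, Otx2) had in the yolk sac a median of 0.808% of their embryo level at 5–6 and 0.762% at 7–9 somite pairs, and markers of visceral endoderm, such as Afp and Ttr, had in the embryo a median of 2.81% and 1.99% of their yolk sac level, so that both tissues showed their defining markers. Whole tissues were extracted, and fewer cells of a type cannot be told apart from less RNA per cell.

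The embryo was the tissue in which most of these genes had their higher level. Among ligands, Wnt5a was the most abundant, with 75.9 normalized counts in the lowest, a median of 171 and 341 in the highest of 66 embryos, against 9.81, 44.4 and 112 in the yolk sacs. It was followed in the embryo by Wnt6 (median 64.1), Wnt5b (42.2), Wnt2 (29.1), Wnt3a (21.9) and Wnt1 (18.95), and the ranges of neighbours in this order overlapped widely. Wnt4, Wnt7b and Wnt8b had embryo medians between 7.59 and 9.67, and the other 10 ligands were at or under a median of 5.33.

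**Figure D1:**
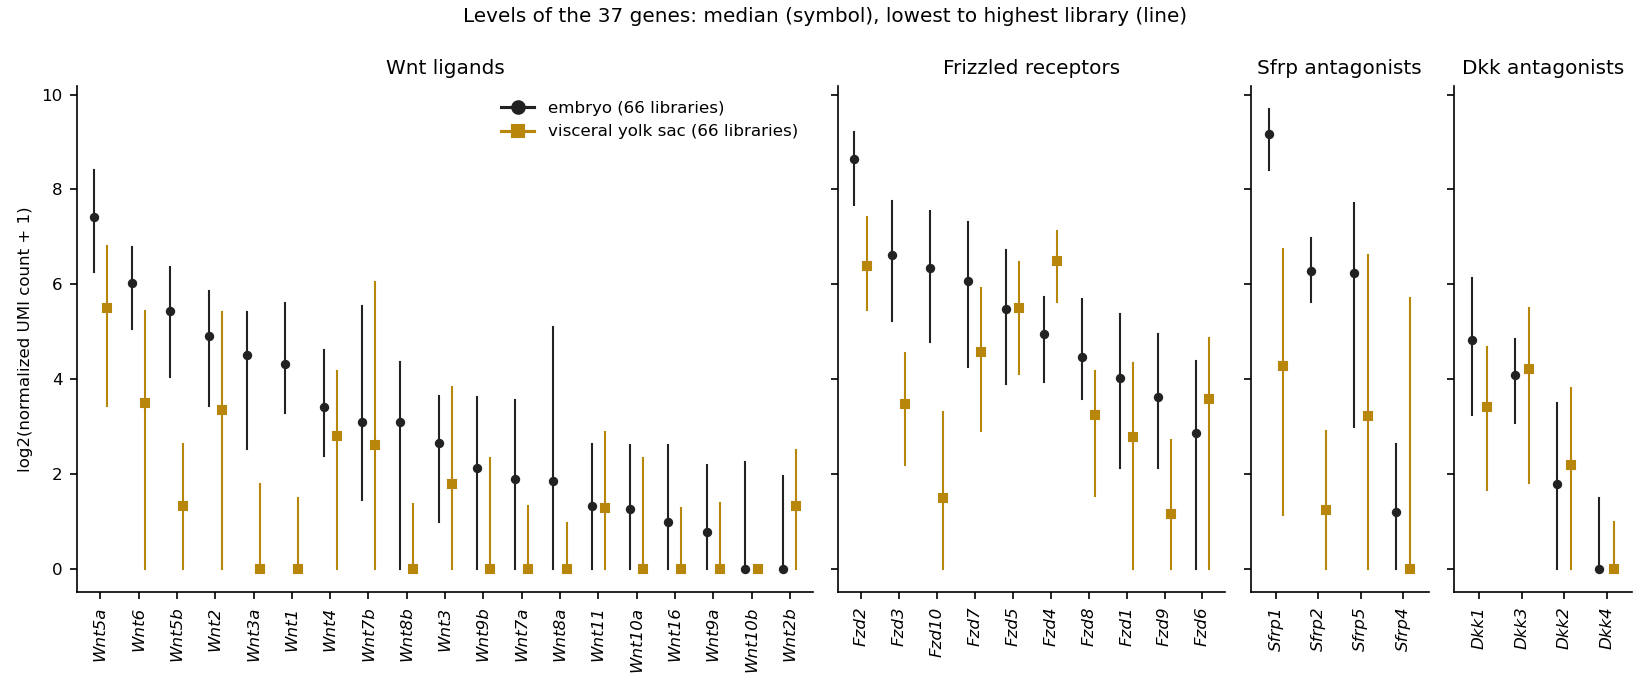
Level of each of the 37 genes as log2(normalized UMI count + 1), with the median of 66 embryo libraries (circles) and 66 yolk sac libraries (squares) and lines from the lowest to the highest library. Sfrp1, Fzd2 and Wnt5a had the highest embryo medians (577, 397 and 171), and Fzd4 was the member with the highest median in the yolk sac (88.6).

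The receptor Fzd2 and the antagonist Sfrp1 had higher embryo medians than any ligand. Fzd2 led the receptors, with 202, 397 and 590 normalized counts in the lowest, median and highest embryo, ahead of Fzd3 (median 97.9), Fzd10 (80.9) and Fzd7 (66.5). Sfrp1 was the most abundant gene of all 37 in the embryo, with 338, 577 and 829. Its range met that of Wnt5a, the leading ligand, only at the ends. The families Sfrp and Dkk were each dominated by few genes, since Sfrp2 and Sfrp5 followed with medians of 76.7 and 74.5, Dkk1 and Dkk3 had 27.3 and 15.9, and Sfrp4, Dkk2 and Dkk4 were at or under 2.45. Plotted by family and tissue, the levels show that the order of the genes differed between embryo and yolk sac, where Fzd4 (median 88.6), Fzd2 (83.2), Wnt5a (44.4) and Fzd5 (44.3) led.

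The first comparison concerned the tissues. Of all genes tested, 79.2% differed between yolk sac and embryo at 5–6 somite pairs and 81.3% at 7–9 (edgeR's quasi-likelihood test, adjusted p under 0.05), so that a call was the usual outcome and only direction and size tell the members apart. In the earlier concepti 23 members had enough counts to be tested, of which 18 were lower and 3 higher in the yolk sac. At 7–9 somite pairs 24 were tested, of which 19 were lower and 3 higher, while of all genes 39.8% and 42.6% were called lower and 39.4% and 38.7% higher at the 2 stages. The median log2 difference of the tested members, yolk sac minus embryo, was -1.78 and -2.08, beside 0 and -0.04 over all genes tested.

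Wnt1 and Wnt3a, ligands of the neural tube and tail bud, had the largest differences of the members tested at each stage. Wnt1, a signal of the midbrain and dorsal neural tube, had 8.79, 18.95 and 47.4 normalized counts in the lowest, median and highest embryo, and at most 1.80 in any yolk sac. All yolk sacs together held 4 Wnt1 UMIs at 5–6 and 2 at 7–9 somite pairs, against 786 and 789 in the embryos, which put the yolk sac level at 0.628% (95% exact interval of the counts 0.171 to 1.61) and 0.265% (0.032 to 0.96) of the embryo level. These intervals cover counting error only. Wnt3a, a ligand of the primitive streak and tail bud, had 4 and 3 UMIs in the yolk sacs and 1067 and 640 in the embryos, or 0.463% (0.126 to 1.19) and 0.49% (0.101 to 1.44). Wnt8b, a forebrain ligand, had 3 UMIs in the yolk sacs of each stage against 272 and 336, or 1.36% (0.279 to 4.02) and 0.933% (0.191 to 2.75). Single neural plate markers, as ratios of mean normalized counts, ran from 0.461% to 3.07% at 5–6 and from 0.341% to 1.32% at 7–9 somite pairs. On that measure Wnt1 at 7–9 had 0.338%, at the lower end of the range, and the other shares of these 3 ligands lay within it.

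The log2 differences of these genes, yolk sac minus embryo, were -6.33 (SE 0.25) at 5–6 and -6.97 (SE 0.23) at 7–9 somite pairs for Wnt1, -6.76 (SE 0.25) and -6.48 (SE 0.26) for Wnt3a, and -5.72 (SE 0.33) at 7–9 for Wnt8b, which was not tested at 5–6 and had -4.99 there without the filter on low counts. The differences at the 2 stages were -5.73 and -5.58 for Sfrp2, -4.99 and -5.31 for Fzd10, -4.54 and -4.76 for Wnt5b, and -4.35 and -4.62 for Sfrp1. Fzd3, Fzd9, Sfrp5, Wnt6, Fzd2, Wnt5a, Dkk1, Fzd7, Fzd8, Fzd1 and Wnt2 were also lower in the yolk sac at each stage, by 1.20 to 3.23 on the log2 scale. Wnt4, a ligand known from kidney and gonad, differed least among the called ligands, with -0.35 (adjusted p = 0.0192) and -0.91, and with diabetic pregnancies alone the earlier call was lost (-0.33, adjusted p = 0.154).

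The libraries of the tissues separated completely for 10 members at each stage, where 12.8% of all genes tested did so at 5–6 and 14.3% at 7–9 somite pairs (6.86% and 7.62% with the yolk sac higher, 5.99% and 6.69% with it lower). At both stages every embryo lay above every yolk sac for Fzd2, Fzd3, Fzd10, Sfrp1, Sfrp2, Wnt1, Wnt3a and Wnt5b. The same held for Fzd9 and Wnt5a at 5–6 and for Wnt8b at 7–9 somite pairs, and at the later stage every yolk sac lay above every embryo for Fzd4.

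Fzd4, the receptor for the ligand Norrin and for several Wnt proteins in blood vessels, was the clearest exception to the direction of the others. It had 14.3, 29.8 and 52.4 normalized counts in the lowest, median and highest embryo and 48.3, 88.6 and 138 in the yolk sacs, and it was higher in the yolk sac of 34 of 34 concepti at 5–6 and 32 of 32 at 7–9 somite pairs. The log2 difference was 1.47 (SE 0.09, adjusted p = 3.52e-25) and 1.56 (SE 0.08, adjusted p = 8.99e-29). Endothelial markers (Kdr, Cdh5, Pecam1, Tie1) were higher in the yolk sac as well, at a median of 260.5% and 227.5% of their embryo level, and their part in the difference of Fzd4 was not tested. Fzd6 was higher in the yolk sac by 0.79 (SE 0.16, adjusted p = 1.35e-05) and 0.63 (SE 0.20, adjusted p = 0.00397), with ranges that overlapped almost entirely, from 0 to 19.9 in embryos and from 0 to 28.4 in yolk sacs. Without diabetic pregnancies, the later difference of Fzd6 was 0.33 and missed the threshold (adjusted p = 0.21).

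Dkk3 was higher in the yolk sac only by the test at 7–9 somite pairs (0.31, adjusted p = 0.00918), where the call was lost without the litter D24M15 (0.10, adjusted p = 0.459). Fzd5 had nearly equal levels in the tissues, with medians of 43.4 and 44.3, and log2 differences of -0.22 (adjusted p = 0.0833) and 0.03 (adjusted p = 0.824). Wnt7b was called higher in the yolk sac at 5–6 somite pairs (1.26, SE 0.35, adjusted p = 0.000826), but not with the conceptus as a block (0.82, adjusted p = 0.0599), and with litter as a random block the difference was -0.02 (adjusted p = 0.974). Its values are described further on.

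Of the 13 or 14 members that had too few counts for these tests, most were lower in the yolk sac when the filter on low counts was left out. These genes are named after their values were seen. Wnt8a, a ligand of the primitive streak, had 278 UMIs in embryos and 2 in yolk sacs at 5–6 somite pairs, with a log2 difference of -5.28 (adjusted p = 1.91e-17). Wnt10b had 21 UMIs in the embryos and 0 in the yolk sacs of the earlier stage. Against a floor of 3 UMIs over the group its level was 5.67-fold higher in the embryo, and the 95% exact interval of the counts reached down to 4.22-fold. Wnt2b went the other way, with 51 and 58 UMIs in yolk sacs against 27 and 14 in embryos, and a difference of 1.12 (adjusted p = 0.00244) and 1.89 (adjusted p = 5.68e-07). It was higher in the yolk sac of 23 of 34 concepti at 5–6 and 25 of 32 at 7–9 somite pairs.

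Other genes of the pathway, 57 in all, were counted in the same fits. Of 45 tested at 5–6 somite pairs 37 were lower and 6 higher in the yolk sac, and of 46 tested at 7–9 36 were lower and 5 higher. Of all genes 39.8% and 42.6% were lower and 39.4% and 38.7% higher at the 2 stages. Of 10 genes listed as targets and feedback genes 9 were tested, and each of these was lower, among them T (-6.69 and -7.05), Sp5 (-5.53 and -5.86) and Axin2 (-2.79 and -3.40). Axin2 is read as a sign of β-catenin activity in many tissues. Whether these differences reflect signal strength or the cell types present was not tested. Lef1, a partner of β-catenin, was lower as well (-4.05 and -5.11). The genes higher at both stages were the co-receptors Lrp5 (1.63 and 1.67) and Ryk (0.35 and 0.28), the transducers Dvl1 (1.21 and 1.29) and Gsk3a (0.19 and 0.23), and Vangl1 (0.27 and 0.43).

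The second comparison concerned the stage. In embryos, 30.8% of all genes tested differed between 7–9 and 5–6 somite pairs, and of 23 members tested 8 did (34.8%), 4 higher and 4 lower, where 15% of all genes were higher and 15.8% lower. When the somite number itself was used, from 5 to 9 pairs, 25.3% of all genes had a slope that passed the test (12.4% upward, 12.9% downward), and 10 of 23 members did (43.5%), 5 rising and 5 falling.

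The genes that fell with somite number were 2 antagonists, a ligand and 2 receptors. Dkk1 had medians of 35.2, 28.5, 22.6, 26.99 and 19.1 normalized counts at 5, 6, 7, 8 and 9 somite pairs, and 29 of 32 embryos of the later stage lay below the median of the earlier one. Its slope was -0.18 per somite pair on the log2 scale (SE 0.04, adjusted p = 0.000396). Sfrp5, an antagonist expressed in foregut endoderm and heart progenitors, fell from a median of 102 at 5 to 66.7 at 9 somite pairs, with a slope of -0.21 (SE 0.05, adjusted p = 0.0012), and 30 of 32 later embryos lay below the earlier median. For Wnt3a the medians went from 27.8 at 5 to 17.02 at 8 and 17.8 at 9 somite pairs (slope -0.15, adjusted p = 0.0155). Those of Fzd5 were 65.0 at 5, 40.1 at 6 and 36.9 at 9 (slope -0.16, adjusted p = 0.00505), so that most of its fall lay between 5 and 6. Fzd4 fell less, by 0.09 per somite pair (adjusted p = 0.0427), and most of the step lay between 5 and 6 somite pairs, with medians of 37.1 and 25.8.

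**Figure D2:**
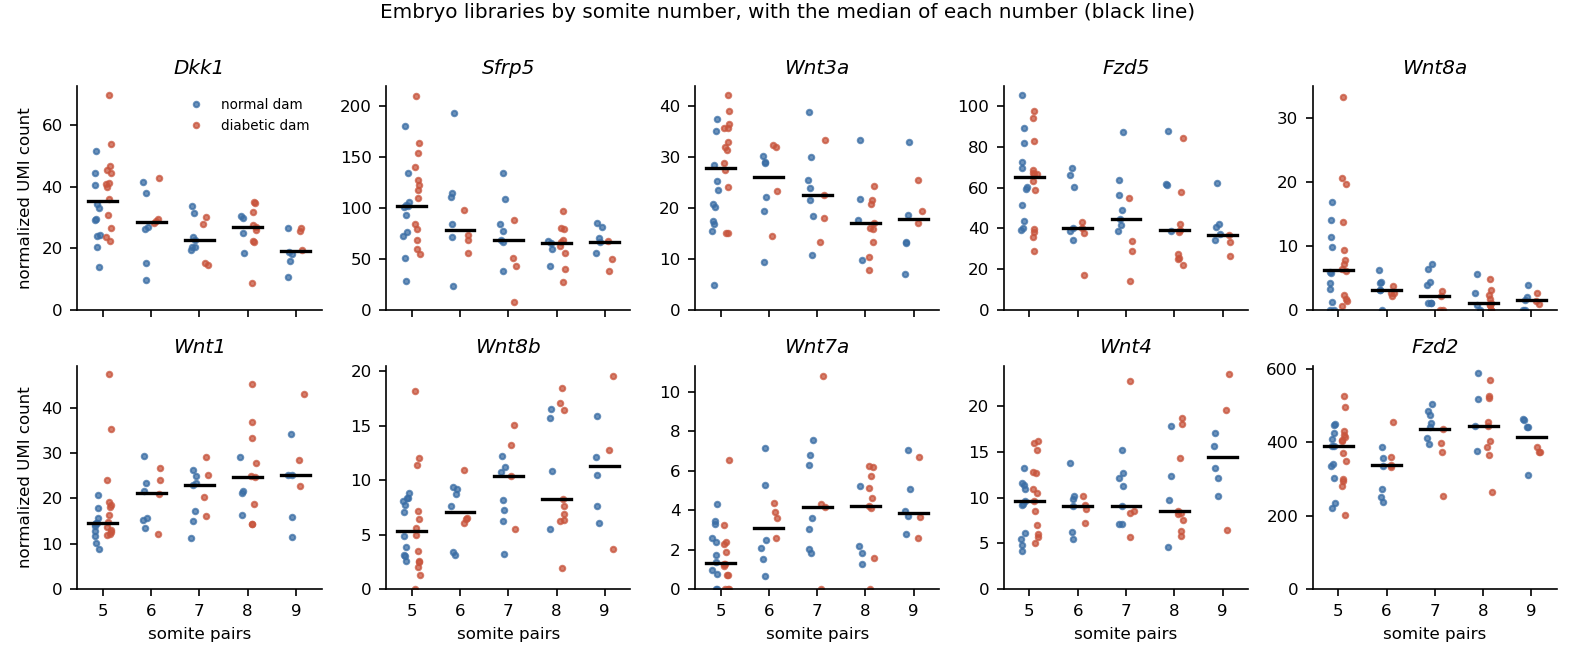
Normalized UMI count of 10 members in single embryos (points, by maternal condition) against the number of somite pairs, with the median at each number as a black line; each panel has its own axis from 0. Medians of Dkk1, Sfrp5, Wnt3a, Fzd5 and Wnt8a were lower at 9 than at 5 somite pairs, and those of Wnt1, Wnt8b, Wnt7a, Wnt4 and Fzd2 were higher.

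The members that rose were ligands and Fzd2. Wnt1 had medians of 14.6, 21.3, 22.9, 24.7 and 25.2 at 5, 6, 7, 8 and 9 somite pairs, and 27 of 32 later embryos lay above the earlier median (slope 0.16, SE 0.04, adjusted p = 0.00244). Wnt8b rose from a median of 5.30 to 11.3 with a slope of 0.24 (adjusted p = 0.00286), Wnt7b from 5.99 to 13.3 with a slope of 0.21 (adjusted p = 0.0232), and Wnt4 from 9.58 to 14.5 with a slope of 0.13 (adjusted p = 0.0355). The medians of Wnt4 stayed between 8.51 and 9.58 from 5 to 8 somite pairs, and the rise lay at 9. Fzd2 had a slope of 0.08 (adjusted p = 0.0283) and was above the earlier median in 29 of 32 later embryos. Between the stage groups the called log2 differences, 7–9 minus 5–6, were -0.62 for Sfrp5, -0.48 for Dkk1, -0.38 for Fzd5, -0.37 for Wnt3a, 0.69 for Wnt8b, 0.41 for Wnt1, 0.27 for Fzd2 and 0.14 for Sfrp1.

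These changes were small beside the spread of single embryos, and several calls depended on the litters. With litter as a fixed block, of the 8 calls between stage groups those of Dkk1, Wnt1 and Wnt8b held, and of the 10 slopes those of Dkk1, Wnt1, Wnt8b, Wnt7b and Wnt4. Without the litter D24M15 the differences of Wnt3a (-0.32, adjusted p = 0.128), Wnt1 (0.33, adjusted p = 0.0603) and Sfrp1 (0.14, adjusted p = 0.09) missed the threshold, and so did the slopes of Wnt3a (-0.12, adjusted p = 0.116), Fzd4 (-0.06, adjusted p = 0.217) and Fzd2 (0.07, adjusted p = 0.109). With normal pregnancies alone 1 member, Fzd2, was called between the stages (0.40, adjusted p = 0.00394), beside 15.1% of all genes, and with diabetic pregnancies alone 7 were, beside 29.2%. Wnt3a differed by -0.09 (adjusted p = 0.805) in normal and by -0.65 (adjusted p = 0.00317) in diabetic embryos, and Fzd5 by -0.19 (adjusted p = 0.426) and -0.57 (adjusted p = 0.0331). The test of such differences between the conditions is the change of the maternal effect between stages, which Wnt3a (-0.57, adjusted p = 0.154) and Fzd5 (-0.39, adjusted p = 0.322) did not pass.

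Below the filter on low counts, Wnt8a fell with a slope of -0.70 per somite pair (SE 0.12, adjusted p = 2.06e-05), beside -0.21 for Sfrp5. Its medians were 6.20, 3.05, 2.15, 0.951 and 1.42, and the highest single embryo, at 33.3, had 5 somite pairs. Wnt7a rose with a slope of 0.29 (adjusted p = 0.0249), with medians between 1.33 and 4.22. Both genes were named after their values were seen. In the same embryos, of the 9 targets and feedback genes tested Cdx1 (-1.09) and Sp5 (-0.51) were lower at 7–9 somite pairs and Nkd2 (0.34) and Nkd1 (0.31), which are induced by Wnt signals and dampen them, were higher. The antagonists Notum (-0.83) and Sost (0.69) moved in opposite directions, and Wls, which carries Wnt proteins to the cell surface, was lower (-0.38). Of the 57 other pathway genes 47 were tested here, and 4 were higher and 11 lower. Of all genes 15% were higher and 15.8% lower, so that calls in either direction were about as frequent as among all genes (30.8%).

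The start regions of ligands and antagonists that moved with somite number are shown so that genes that moved alike can be compared. Each line gives the 250 bases before the transcription start in RefSeq, 5′ to 3′ on the strand of the gene, in lower case because no motif searched for was found in them. Sfrp5 and Wnt3a fell, and Wnt1 and Wnt8b rose.
Sfrp5 (GRCm38.p6, chr19:42202253-42202502, minus strand): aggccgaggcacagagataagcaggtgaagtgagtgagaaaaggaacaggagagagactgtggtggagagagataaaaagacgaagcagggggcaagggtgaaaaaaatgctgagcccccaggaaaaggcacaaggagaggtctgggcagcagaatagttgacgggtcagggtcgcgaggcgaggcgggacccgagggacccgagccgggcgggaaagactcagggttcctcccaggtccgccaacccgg
Wnt3a (GRCm38.p6, chr11:59290752-59291001, minus strand): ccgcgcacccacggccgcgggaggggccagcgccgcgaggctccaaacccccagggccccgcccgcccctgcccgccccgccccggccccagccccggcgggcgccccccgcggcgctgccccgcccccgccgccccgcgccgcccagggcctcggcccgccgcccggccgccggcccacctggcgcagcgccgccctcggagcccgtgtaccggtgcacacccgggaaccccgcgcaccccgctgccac
Wnt1 (GRCm38.p6, chr15:98789607-98789856, plus strand): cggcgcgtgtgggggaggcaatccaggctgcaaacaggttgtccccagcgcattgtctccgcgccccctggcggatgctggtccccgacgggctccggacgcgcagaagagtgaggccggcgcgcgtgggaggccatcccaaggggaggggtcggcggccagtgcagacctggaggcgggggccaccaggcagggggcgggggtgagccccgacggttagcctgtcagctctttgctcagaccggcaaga
Wnt8b (GRCm38.p6, chr19:44493222-44493471, plus strand): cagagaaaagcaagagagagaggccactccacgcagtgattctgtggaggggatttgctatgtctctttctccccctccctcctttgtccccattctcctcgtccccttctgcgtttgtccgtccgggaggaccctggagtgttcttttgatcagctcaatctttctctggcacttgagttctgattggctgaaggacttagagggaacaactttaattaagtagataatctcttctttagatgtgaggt

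The share of G and C in these windows was 59.6% for Sfrp5, 87.6% for Wnt3a, 71.6% for Wnt1 and 48.4% for Wnt8b, and they held 13, 41, 23 and 5 CpG pairs. A start region was matched for 25 of the 37 genes, with 28 starts. The core letters of the TCF/LEF motif, CTTTGAA or CTTTGAT on either strand, were searched in the 300 bases from 250 before to 50 after each start. They were present at 3 of 28 starts of members, or 10.7%, against 8.65% of all 32851 starts. The matches are shown with 11 bases before and 12 after, on the strand of the gene, with the motif in capitals, because Dkk1 is known as a target of the pathway it inhibits.
Dkk1 (GRCm38.p6, chr19:30549595-30549624, minus strand): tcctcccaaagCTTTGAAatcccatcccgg
Wnt11 (GRCm38.p6, chr7:98835050-98835079, plus strand): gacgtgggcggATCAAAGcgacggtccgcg
Wnt5b (GRCm38.p6, chr6:119449439-119449468, minus strand): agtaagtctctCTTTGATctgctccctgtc

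The match of Dkk1 begins 117 bases before the RefSeq start and lies inside the longer first exon that GENCODE M21 gives for this gene, the match of Wnt5b begins 71 bases before its start and lies in an intron of a longer transcript, and that of Wnt11 begins 51 bases before the start, on the opposite strand and outside annotated genes. These are matches of letters and not sites of binding. Dkk1 fell with somite number, whereas Wnt5b had no slope that passed the test. The medians of Wnt5b were 40.6, 40.7, 50.9, 46.0 and 38.5 at 5, 6, 7, 8 and 9 somite pairs.

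In the yolk sac, 40% of all genes differed between the stages, and of 15 members tested 2 were higher and 2 lower at 7–9 somite pairs, against 21.7% and 18.3% of all genes. Dkk3 was higher by 0.38 (adjusted p = 0.012) and Fzd8 by 0.38 (adjusted p = 0.0195), and Sfrp5 was lower by 0.87 on the log2 scale (adjusted p = 0.0433). Wnt7b was lower, with a difference of -1.39 (SE 0.42, adjusted p = 0.0058), while in embryos its stage difference was 0.45 (adjusted p = 0.101), and the difference between these differences was itself past the threshold (-1.83, SE 0.48, adjusted p = 0.0165), the single member among 24 for which this was so, beside 3.23% of all genes (1.74% upward, 1.49% downward). With litter as a random block the Wnt7b calls were lost (-0.54, adjusted p = 0.468, for the yolk sac and -1.08, adjusted p = 0.269, between tissues), as was that of Sfrp5 (-0.61, adjusted p = 0.234), which was not called with DESeq2 either (adjusted p = 0.051). The call of Dkk3 was lost without D24M15 (0.24, adjusted p = 0.175) and with normal pregnancies alone (0.06, adjusted p = 0.844), and with litter as a fixed block those of Dkk3 (0.30, adjusted p = 0.179), Fzd8 (0.34, adjusted p = 0.131) and Wnt7b (-1.04, adjusted p = 0.17) were lost, while that of Sfrp5 was not (-1.58, adjusted p = 0.0013).

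Wnt7b, a ligand known from the chorion of the forming placenta, varied widely among yolk sacs. In the earlier yolk sacs its lowest, median and highest normalized counts were 0, 5.68 and 65.0 in normal and 0, 11.3 and 63.6 in diabetic pregnancies, and at 7–9 they were 0, 4.12 and 20.6 and 0, 4.25 and 32.8. Some yolk sacs of every group had none, and a few of the earlier stage had more than any embryo, where the highest was 45.96. The summed level of 5 genes of the extraembryonic ectoderm (Elf5, Tfap2c, Eomes, Esrrb, Ascl2), a list chosen after the values of Wnt7b were seen, varied in the same libraries, from 17.5 to 718 in normal and from 20.6 to 1560.2 in diabetic pregnancies at the earlier stage, with medians of 71.6 and 195. At the later stage it ran from 6.52 to 256 and from 8.72 to 288, with medians of 40.7 and 46.8. Tfap2c and Ascl2 made up 74.8% to 94.6% of the sum in the 10 yolk sacs where it was highest, whereas Eomes had medians of 15.9 to 26.9 by group and Esrrb was at most 16.7.

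**Figure D3:**
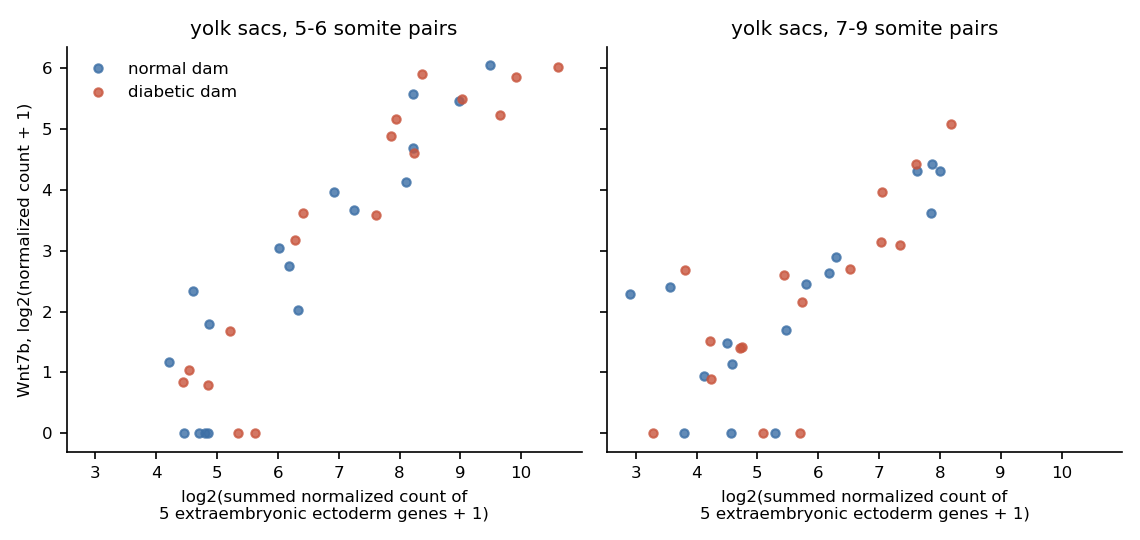
Each point is a yolk sac, with the summed level of 5 extraembryonic ectoderm genes on the x axis and Wnt7b on the y axis, both as log2(normalized count + 1), at 5–6 somite pairs on the left and 7–9 on the right. Libraries with a high sum had a high Wnt7b in all 4 groups (Pearson's r 0.93 and 0.92 on the left, 0.752 and 0.779 on the right).

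Within each of the 4 groups, Wnt7b and this sum rose together. At 5–6 somite pairs Pearson's r was 0.93 in 17 normal and 0.92 in 17 diabetic libraries (permutation test, adjusted p = 6.7e-05 for both over 20 relations, from the smallest p of 1e-05 that 100000 resamples can give), and Spearman's rho was 0.896 and 0.906 (adjusted p = 6.7e-05 for both). At 7–9 somite pairs r was 0.752 (permutation test, adjusted p = 0.0019) and 0.779 (adjusted p = 0.00087) in 16 libraries each, with rho of 0.749 and 0.755 (adjusted p = 0.002 for both). The resamples shuffled single libraries, so that these p-values treat littermates as independent. Without the 2 libraries farthest from the median sum, r was 0.9, 0.904, 0.635 and 0.657, and within litters it was 0.763, 0.939, 0.775 and 0.801. With this sum as a covariate the stage difference of Wnt7b in the yolk sac was -0.0062 (edgeR, adjusted p = 0.999). The list was chosen after the values of Wnt7b were seen and moves with it, so this fit is no independent test. The part of extraembryonic ectoderm in the stage difference was not tested. The source of the extraembryonic ectoderm transcripts was not tested, and trophoblast markers (Prl3d1, Prl2c2, Tpbpa, Gcm1) summed to at most 20.8 in any yolk sac.

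Wnt6 followed the same sum at the earlier stage, with r of 0.751 (permutation test, adjusted p = 0.00085) and 0.83 (adjusted p = 0.00027), or 0.262 and 0.8 within litters, while at the later stage the relation missed the threshold (0.494, adjusted p = 0.052, and 0.345, adjusted p = 0.19), and without the 2 farthest libraries r was 0.277 and 0.108. Sfrp1, Sfrp5 and Wnt2 moved in the yolk sac with the markers of heart (Nkx2-5, Myl7, Tnnt2, Myl4). Over the 4 groups r with their sum was 0.649 to 0.901 for Sfrp1, 0.668 to 0.81 for Sfrp5 and 0.517 to 0.86 for Wnt2, with adjusted p (permutation test) from 6.7e-05 to 0.068, and the weakest of them, Wnt2 in diabetic yolk sacs at 7–9 somite pairs, missed the threshold. By Spearman's rho 4 of these 12 relations missed it, all of them at 7–9 somite pairs (permutation test, adjusted p 0.056 to 0.064). The p-values of all these relations treat littermates as independent. Within litters r was 0.177 to 0.807 for Sfrp1, 0.592 to 0.937 for Sfrp5 and 0.366 to 0.807 for Wnt2, and without the 2 farthest libraries the lowest values were 0.336, 0.389 and 0.527. Heart marker sums in the yolk sac had medians of 39.9 to 52.1 by group, and the highest library had 569. With these markers as a covariate, added after seeing the data, the stage difference of Sfrp5 in the yolk sac was -0.53 and just missed the threshold (edgeR, p = 0.0255, adjusted p = 0.0606). The call without the covariate was itself close to the threshold. The part of heart tissue in the difference of Sfrp5 was not tested.

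The third comparison, and the one the study was set up for, was between diabetic and normal pregnancies. In embryos at 5–6 somite pairs 1.46% of all genes tested were called (0.591% higher and 0.872% lower in diabetic pregnancies). None of the 21 members tested were called, with edgeR or with DESeq2. With litter as a random block 0.0364% of all genes were called, and with counts summed per litter 0%. Without adjustment 4 members had p under 0.05, all of them higher in diabetic pregnancies. For Wnt3a the lowest, median and highest counts were 4.798, 22.1 and 37.3 in normal and 14.4, 32.0 and 42.0 in diabetic embryos (log2 difference 0.38, adjusted p = 0.214). Those of Dkk1 were 9.61, 29.2 and 51.4 against 22.2, 39.8 and 69.7 (0.38, adjusted p = 0.202). Wnt5b and Wnt5a had differences of 0.28 (adjusted p = 0.225) and 0.26 (adjusted p = 0.154). The groups overlapped for all 4 genes, and the median difference over the 21 members was 0.16, beside 0 over all genes.

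At 7–9 somite pairs 9.09% of all genes differed between diabetic and normal embryos, 5.2% being higher and 3.89% lower, and of 22 members tested 1, Wnt5a, was lower and none were higher. Wnt5a lies on GRCm38 chr14:28504750-28527448, on the plus strand. In normal embryos its lowest, median and highest normalized counts were 127, 182 and 239, with a mean of 186 ± 35.97 (SD, n = 16), and in diabetic embryos they were 75.9, 142 and 198, with a mean of 140 ± 37.1 (SD, n = 16). Of the diabetic embryos 14 lay below the normal median and 7 below the lowest normal embryo, and 7 normal embryos lay above the highest diabetic one, so that the groups were shifted but overlapped. The log2 difference was -0.41 (SE 0.12, 95% interval -0.65 to -0.17, adjusted p = 0.0272).

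**Figure D4:**
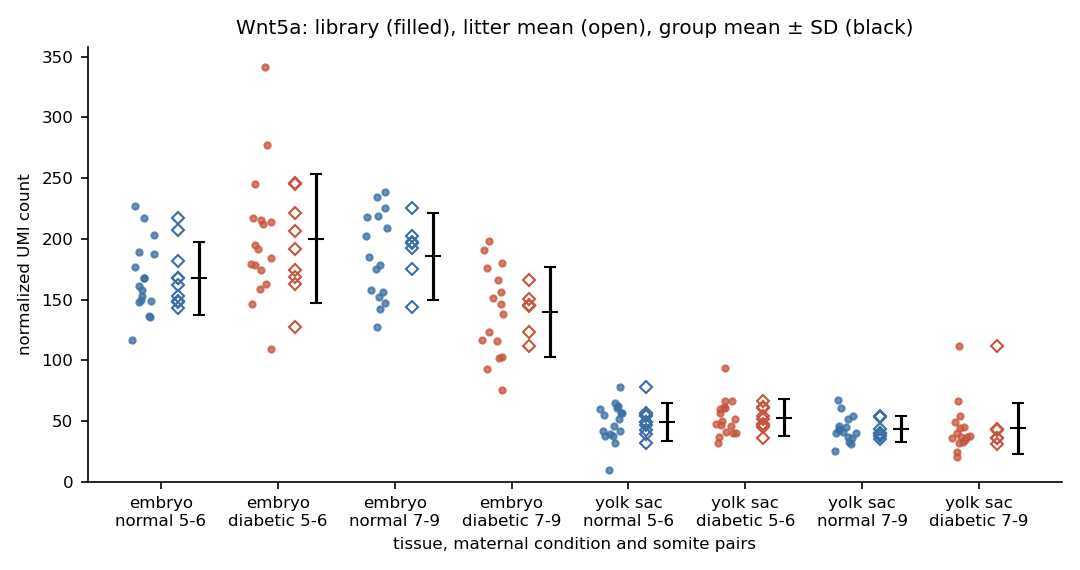
Wnt5a in the 8 groups, as the normalized UMI count of each library (filled circles), the mean of each litter (open diamonds) and the group mean ± SD (black bars). The lowest group mean among embryos was that of diabetic pregnancies at 7–9 somite pairs (140), and the 4 yolk sac groups had means between 43.2 and 52.8.

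At the earlier stage the difference of Wnt5a had the opposite sign. Normal embryos at 5–6 somite pairs had 117, 161 and 227 (mean 167 ± 29.7, SD, n = 17), and diabetic embryos had 109, 192 and 341 (mean 200 ± 53.1, SD, n = 17). The change of the maternal effect between stages was -0.65 (SE 0.16) and was past the threshold (adjusted p = 0.0101), as for 8.7% of all genes (4.35% in each direction). Wnt5a was the single member of 23 tested for which this was so. In the yolk sac neither stage showed a difference past the threshold, with -0.08 (adjusted p = 0.98) for the change between stages, and the test of the difference between tissues at 7–9 somite pairs missed it as well (0.44, 95% interval 0.03 to 0.86, adjusted p = 0.251), where 0.389% of all genes passed.

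Littermates share a dam, and the comparison was therefore repeated on litter means of log2(normalized count + 1). At 7–9 somite pairs each of the 6 diabetic litters had a mean under the normal median (7 litters), with a difference of -0.45 (exact permutation test over 1716 splits, two-sided, p = 0.00291, adjusted p = 0.0116 over the 4 tissues and stages). At 5–6 somite pairs the difference of litter means was 0.17 (exact permutation test over 92378 splits, p = 0.162, adjusted p = 0.324). Wnt5a alone was taken to this test, as the member called in the later embryos, and the adjustment over 4 does not cover that choice. The call at 7–9 somite pairs was close to the threshold across all genes. It was lost with litter as a random block (-0.43, adjusted p = 0.0787), with counts summed per litter (-0.40, adjusted p = 0.115) and with all 8 groups in 1 fit (-0.40, adjusted p = 0.0518). The call was also lost without the litter D28M31 (-0.34, adjusted p = 0.0952), N28M03 (-0.39, adjusted p = 0.0513), N28M05 (-0.38, adjusted p = 0.0758) or N28M07 (-0.40, adjusted p = 0.0557). Over all alternatives the difference stayed between -0.49 and -0.34 and the adjusted p between 0.0124 and 0.115. The change of the effect between stages was past the threshold in 24 of 24 alternatives, from -0.72 to -0.59. These were DESeq2, litter as a random block, and fits that each left out 1 litter. Litter sums and all 8 groups in 1 fit, which ended the call at 7–9 somite pairs, were not tried for this change.

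Library titles begin with a number that the labels do not explain. Among libraries of number 28, Wnt5a at 7–9 somite pairs had a mean of 186 in 13 normal and 131 in 8 diabetic embryos, and among those of number 24 a mean of 184 in 3 normal and 145 in 7 diabetic embryos, which all belong to the litter D24M15. At 5–6 somite pairs the means were 154 in 12 normal and 203 in 13 diabetic embryos of number 28, and 195 in 4 and 192 in 3 embryos of number 24. Number 23 had 1 normal (217) and 1 diabetic embryo (192) at the earlier stage, and at the later stage 1 diabetic (166) and no normal one. The lower level at the later stage was thus seen within numbers 24 and 28, and the higher level at the earlier stage within number 28 alone. With number 28 alone, 16% of all genes and 4 of 21 members were called at 5–6 somite pairs, each higher in diabetic embryos: Fzd3 (0.67, adjusted p = 0.00644), Fzd4 (0.46, adjusted p = 0.0177), Wnt5a (0.41, adjusted p = 0.0225) and Dkk1 (0.51, adjusted p = 0.0461). Markers of heart moved with the later comparison, with a median sum of 686 in normal and 963 in diabetic embryos, and 2 of the 4, Myl7 (0.69) and Myl4 (0.38), were called higher; their part in the difference of Wnt5a was not tested.

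Other members of the later embryos did not pass the test. Fzd5 was nearest, with 34.5, 46.6 and 88.0 in normal and 13.9, 33.3 and 84.4 in diabetic embryos (log2 difference -0.50, SE 0.18, adjusted p = 0.0695). It passed with DESeq2 (-0.51, adjusted p = 0.0481), with the title number as a covariate (-0.71, adjusted p = 0.0117), without D24M15 (-0.77, adjusted p = 0.0157), without D23M26 (-0.54, adjusted p = 0.0495) and with number 28 alone (-0.90, adjusted p = 0.014). Fzd5 missed the threshold in the other 18 of 23 settings, among them litter as a random block and litter sums. Over all settings its difference ran from -0.90 to -0.37, with an adjusted p of up to 0.193. Fzd1 had -0.52 (adjusted p = 0.196) and Wnt1 0.31 (adjusted p = 0.21). The median over the 22 members was -0.02, beside -0.01 over all genes. Of the 57 other pathway genes 45 were tested, and 4 were lower and 0 higher in diabetic embryos. Of all genes 3.89% were lower and 5.2% higher, or 9.09% in either direction, so that calls among the pathway genes were about as frequent. The 4 were the co-receptor Lrp6 (-0.43, adjusted p = 0.0159), the polarity gene Celsr1 (-0.31, adjusted p = 0.0265), the transcription factor Lef1 (-0.41, adjusted p = 0.0288) and Wls (-0.21, adjusted p = 0.0432). For Lef1 (-0.76, adjusted p = 0.0132) and Lrp6 (-0.53, adjusted p = 0.0329) the change between stages passed as well. They were the only calls among 47 tested, beside 8.7% of all genes. These comparisons share their samples with that of Wnt5a. They treat littermates as independent, and no fit with litter is given for these 4 genes.

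In yolk sacs no member was called at either stage, among 14 tested at 5–6 and 10 at 7–9 somite pairs, where 0% and 0.0194% of all genes were called. Counts at an unadjusted p under 0.05 were 0 and 1 with edgeR, and DESeq2 also called none. The 1 gene was Dkk3 at 7–9 somite pairs, with 12.2, 18.7 and 25.6 in normal and 3.31, 22.4 and 44.5 in diabetic yolk sacs (0.35, adjusted p = 0.433). Summed over families, median levels in normal and diabetic yolk sacs of the later stage were 76.5 and 77.9 for Wnt ligands, 289 and 286 for Fzd receptors, 17.9 and 41.1 for Sfrp and 32.8 and 36.2 for Dkk antagonists. The Sfrp sum had a median of 52.8 in the 7 diabetic yolk sacs of D24M15 and of 21.8 in the other 9.

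Sfrp4 was too low in most libraries for the filter, and is described because of 1 litter, after its values were seen. In the yolk sacs of D24M15 its lowest, median and highest normalized counts were 0, 8.42 and 51.2, and 8 of 9 had UMIs, 176 in all. In 24 yolk sacs of the other diabetic litters 12 had UMIs, 15 in all, and in 33 normal yolk sacs 3 had UMIs, 4 in all. The 9 embryos of the same litter held at most 3.91, and the other embryos at most 5.18. Without the filter on low counts the log2 difference between diabetic and normal yolk sacs was 4.33 at 5–6 (adjusted p = 0.107) and 4.42 at 7–9 somite pairs (adjusted p = 0.0117), and without D24M15 it was 1.62 (adjusted p = 0.614) and 1.34 (adjusted p = 0.668).

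**Figure D5:**
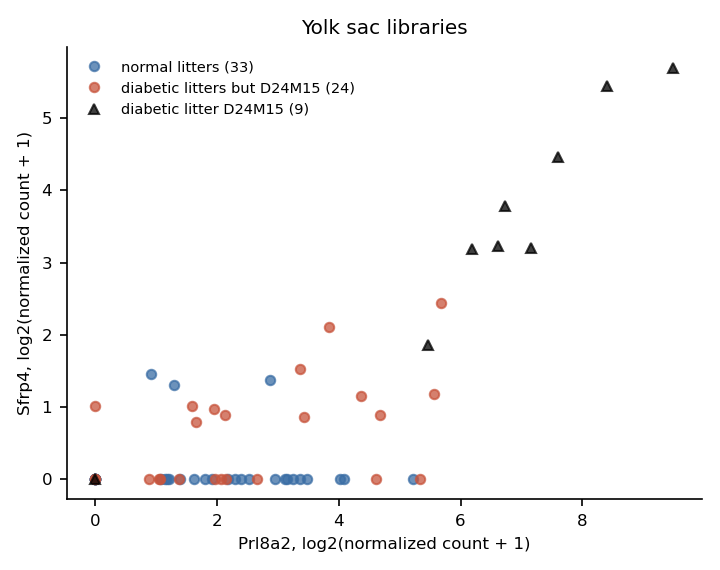
Each point is 1 of 66 yolk sacs, with Prl8a2, a prolactin family gene of the decidua, on the x axis and Sfrp4 on the y axis, both as log2(normalized count + 1), and the litter D24M15 as triangles. The 8 yolk sacs of D24M15 with Sfrp4 UMIs also had Prl8a2 (43.2 normalized counts or more), and the ninth had neither.

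The decidual gene Prl8a2 was high in the same yolk sacs. It had 0, 105 and 719 normalized counts in D24M15, against a median of 3.28 and a highest value of 49.9 in the other diabetic and a median of 2.06 and a highest value of 36.1 in the normal yolk sacs. In the plot of both genes the yolk sac of D24M15 without Sfrp4 is also without Prl8a2. The highest values of both genes, 51.2 for Sfrp4 and 719 for Prl8a2, were in the same yolk sac. The part of maternal tissue in the Sfrp4 values was not tested.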

How the data were processed

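Embryos and visceral yolk sacs were sequenced with the QuantSeq 3′ FWD kit with UMIs. The authors deposited counts of molecules per gene and library, without normalization; STAR, HTSeq and mm10 are named in the submitters' processing notes, and versions are not given in the sources used here. The table holds 47643 genes, and 4 duplicate libraries kept as batch controls were left out, which gave 132 libraries. Coordinates are those of GENCODE M21 (GRCm38), which held 47224 of the gene identifiers, and start regions those of RefSeq (GRCm38.p6), of which 26 of 28 continue into a sense transcript of their gene.

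Groups followed the tissue, maternal condition and somite number in the labels. The test was the quasi-likelihood test of edgeR 4.0.16 under R 4.3.3, after TMM normalization and filterByExpr with a minimum count of 10, with Benjamini-Hochberg adjustment over all genes tested, and an adjusted p under 0.05 was a call. Fits for maternal condition used 1 tissue and stage each, and other fits used group means over the tissues or stages compared. Normalized counts are deposited counts divided by size factors of DESeq2 1.42.0 over all 132 libraries, and the log2 scale used a pseudocount of 1. Relations used permutation tests with 100000 resamples of single libraries, without regard to litter, and litter means the exact permutation test. Alternatives were DESeq2's Wald test, its size factors, no filter, a mean count of at least 10, litter as a random block (limma 3.58.1), litter sums, covariates, conceptus or litter as fixed blocks, single conditions, and leaving out litters. The edgeR fits for maternal condition, tissue, stage, slope and stage by tissue were tested on simulated counts drawn without litter structure. The other interaction terms and the alternatives were not.

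Full values are given for each member called between maternal conditions and for up to 8 members in each direction whose difference was largest among calls, provided 1 group averaged 10 or more normalized counts. The members, the list of 57 other pathway genes and the marker lists were chosen with earlier results of these data known, and the extraembryonic ectoderm list, the marker covariates, the values within title numbers and, for differences between tissues and for interactions, the fits without single litters were added after seeing the data. Embryo and yolk sac of 1 conceptus are paired by design: the median correlation of their deviations from group means was 0.1 at 5–6 and 0.044 at 7–9 somite pairs. For 2 concepti the sex labels of embryo and yolk sac differ, and sex was used in 1 alternative only.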

Additional observations from a re-analysis of the deposited data

Results flagged for a closer look

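For Wnt5a in embryos, the effect of maternal diabetes differed between 7–9 and 5–6 somite pairs, with a change of -0.65 on the log2 scale (SE 0.16, interaction term in edgeR, adjusted p = 0.0101). For Wnt7b, the difference between the stages was not the same in yolk sac and embryo in the main fit, with a change of -1.83 (SE 0.48, interaction term in edgeR, adjusted p = 0.0165). With litter as a random block the Wnt7b term was -1.08 and missed the threshold (limma, adjusted p = 0.269). Groups held 16 or 17 libraries, and single libraries were not screened for standing apart within a group.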

How the results depend on the processing

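Of the settings tried for single genes, 741 kept the direction and the side of the threshold, 65 lost a call, 7 gained a call and 2 changed sign. The 2 were Dkk3 between maternal conditions in later yolk sacs with title number 28 alone (-0.0631) and Wnt7b between tissues at 5–6 somite pairs with litter as a random block (-0.0159).

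Counts of members called changed as follows. Between maternal conditions in embryos, 0 at 5–6 somite pairs became 4 with title number 28 alone (16% of all genes there), and 1 at 7–9 became 2 with DESeq2, with the title number as a covariate or with number 28 alone, and 0 with litter as a random block, litter sums or all 8 groups in 1 fit. In later yolk sacs 0 became 1 without the filter. Between stages, 8 in embryos became 5 with litter sums, 4 with litter as a fixed block and 1 with normal pregnancies alone, and 4 in yolk sacs became 2 without the filter or with litter as a random block, 1 with litter as a fixed block or diabetic pregnancies alone, and 0 with normal pregnancies alone. The 10 slopes became 6 with litter as a fixed block, and the 1 call of stage by tissue became 0 with litter as a random block.

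With the conceptus as the replicate block, 20 members were called between tissues at 5–6 and 23 at 7–9 somite pairs, beside 21 and 22 without it, and Wnt7b was the one named call that this block ended. Leaving out single litters gave 0 to 2 calls between maternal conditions in later embryos and 0 in earlier embryos and in yolk sacs of both stages. Leaving out D24M15 gave 6 calls between stages in embryos and 3 in yolk sacs, 7 slopes, 1 for diabetes by stage in embryos, 1 for stage by tissue, and 21 and 22 between tissues. Depth limits the members with few UMIs per library: 13 to 27 of the 37, depending on the comparison, had too few counts to be tested with the filter.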

Other observations

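Several Wnt genes lie side by side in pairs, and within 3 of 4 such pairs 1 member was far higher than the other in every embryo. Wnt1 and Wnt10b are separated by 11707 bases on chromosome 15 and had means of 20.95 and 0.455 normalized counts. Wnt6 and Wnt10a lie 6194 bases apart on chromosome 1, with means of 67.2 and 1.76, and Wnt3a and Wnt9a lie 16176 bases apart on chromosome 11, with means of 22.9 and 0.836. The same gene of each of these pairs was the higher in 66 of 66 embryos. For Wnt3 and Wnt9b, 24329 bases apart on chromosome 11, the means were 5.41 and 3.55, and Wnt3 was higher in 49 and Wnt9b in 14 embryos. Each pair was described after its values were seen, with no test.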
